A study of Sus scrofa with 2 samples.

Results

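TFRC encodes the transferrin receptor, and its levels are described here over the cell types and clusters of 2 single-cell libraries of pig endometrium. It was taken as the 1 feature of 26881 that carries the symbol TFRC (ENSSSCG00025029620). ACP5 (ENSSSCG00025019530), the gene of the secreted iron-binding phosphatase uteroferrin, serves as context. The library called EL came from a Yorkshire sow aged 3 years that had aborted and then failed to conceive at 3 inseminations in a row; its stage at sampling is not given. The library called EIS came from a Yorkshire sow of the same age at day 30 of pregnancy after insemination. About 200 mg of tissue was digested, red cells were lysed, and droplet 3′ libraries were made that count unique molecular identifiers (UMIs), each standing for 1 captured RNA molecule. Each group is 1 library, which leaves no spread between animals to test against: sow, stage, pregnancy and library cannot be told apart, and every interval below is a 95% interval that covers counting error only.

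Iron circulates bound to transferrin. The transferrin receptor on the cell surface binds iron-loaded transferrin and carries it into endosomes, where the iron is released, reduced by STEAP3 and passed to the cytosol, while receptor and transferrin return to the surface. When a cell is short of iron, the iron-regulatory proteins, among them the one encoded by ACO1, bind the TFRC mRNA and protect it from decay. When iron is plentiful the mRNA is degraded. Erythroid precursors, dividing cells and placental trophoblast are known for high receptor levels. In the pregnant pig, uterine glands secrete uteroferrin, which is known to carry iron toward the conceptus.

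The files held 10936 EL barcodes with 43302286 UMIs and 8848 EIS barcodes with 36069473 UMIs. After filtering, 9864 EL cells (median 2344.5 UMIs) and 8068 EIS cells (median 2240.5 UMIs) were kept, and 24 kept barcodes occurred in both libraries. The cells formed 33 clusters, clustered without TFRC, ACP5 or any gene of the iron lists. Marker lists named 27 clusters, so names mean "like" a cell type. Unnamed clusters held 35.3% of EL and 28.3% of EIS cells. The EIS library, labelled endometrium, also held 1634 cells in clusters named from trophoblast markers, 1539 of them in a cluster led by PAG6. That cluster scored 1.13 (mean log2) for trophoblast markers, against the mean of all clusters. It scored 1.90 for epithelial markers, against the median of clusters named as neither epithelial, ciliated, trophoblast nor erythroid. The baselines differ, so the scores cannot be ranked against each other. ACP5 took 4.02% of all EIS UMIs and was seen in 99.7% of EIS cells, immune and vascular cells among them.

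TFRC was higher in the EIS library as a whole. In EL, 1438 TFRC UMIs gave a level of 37.3 in counts per 1000000 UMIs (CPM; 35.4 to 39.2), and 8.11% of cells held at least 1 (7.58 to 8.67%). In EIS, 5392 TFRC UMIs gave 161 CPM (157 to 165), and 31.5% of cells held at least 1 (30.5 to 32.5%). The EIS level was 4.32-fold the EL level (4.07 to 4.58). Smooth muscle or pericyte-like cells of EIS, the named EIS class with the lowest TFRC level, held a TFRC UMI in 11.4% of cells at a median depth of 15267.5 UMIs. With every cell thinned to 1000 UMIs, 2.26% of 7481 EL cells and 13.97% of 6244 EIS cells held TFRC. In both libraries a few clusters supplied most of it.

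Clusters with at least 50 cells in a library gave 34 levels, 14 from EL and 20 from EIS. The median level was 14.5 CPM in EL and 48.1 CPM in EIS. An EIS cluster led by DCLK2 and KSR2 was highest at 634 CPM (579 to 694, 478 UMIs in 869 cells). An EIS cluster led by IGFBP2, AQP8 and TRPV5 followed at 623 CPM (585 to 662, 1023 UMIs in 105 cells). The intervals of these leading clusters overlapped, and both lay above every other cluster. A trophoblast-like cluster led by SMPDL3A and CHGA came next at 205 CPM (171 to 244). The highest EL level was 111 CPM (105 to 118), in a cluster led by CYP26A1, and 7 EIS clusters were above it. At the foot of the order were an EL ciliated cluster led by SNTN at 9.11 CPM (6.97 to 11.7), an EL epithelial cluster led by OPTC at 3.61 CPM (2.06 to 5.86) and EL stromal cells. EL stromal cells held 0 UMIs in 51 cells, and 3 UMIs there would be 32.8 CPM. Of 33 neighbouring pairs in the order, 29 had overlapping intervals, so most of the order between 10 and 60 CPM is not resolved by the counts.

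**Figure D1:**
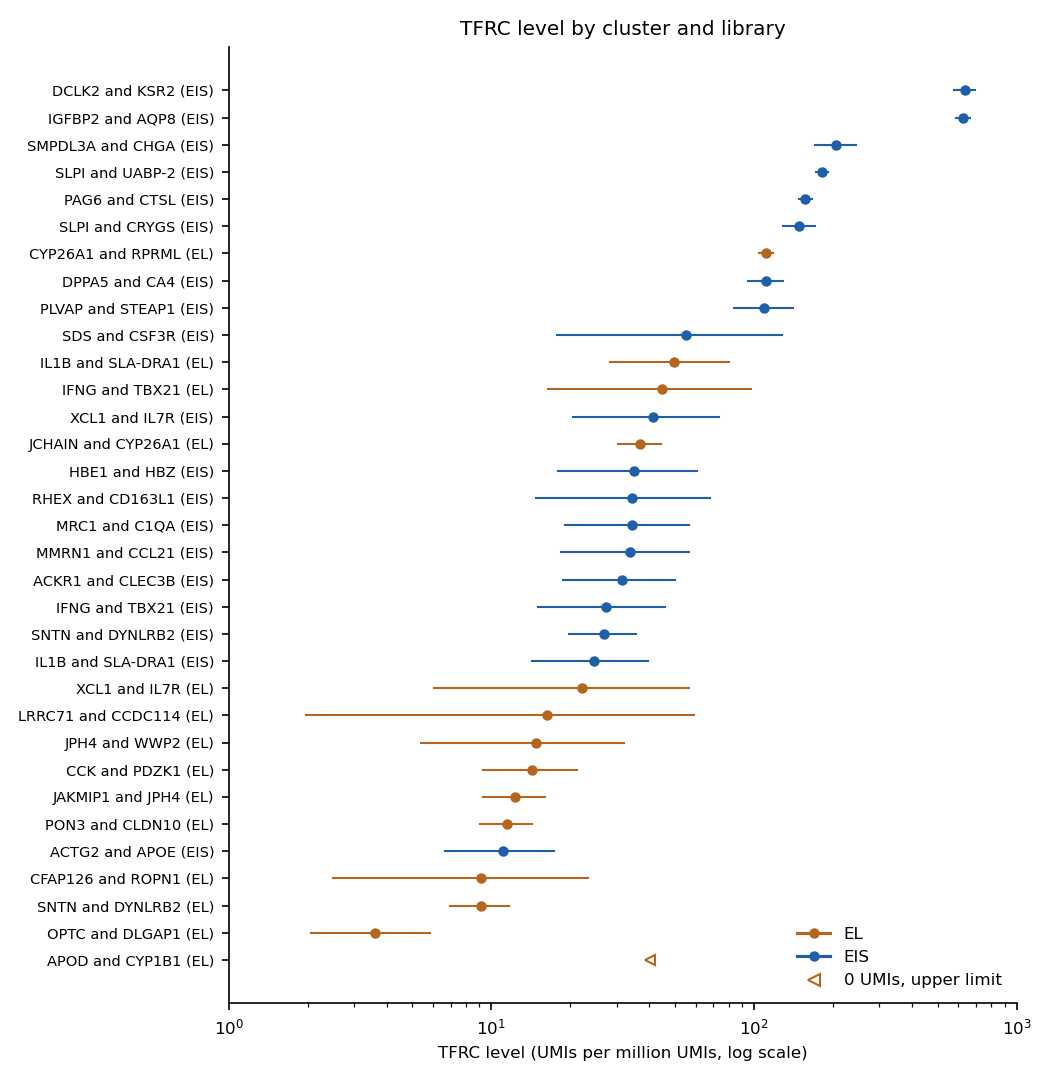
TFRC level (CPM, log axis) of each cluster with at least 50 cells, labelled by its leading genes and library, with exact Poisson 95% intervals as bars and brown for EL, blue for EIS. The DCLK2 and IGFBP2 clusters of EIS stand at 634 and 623 CPM, apart from the rest, and the open triangle is the upper limit of the EL stromal cluster with 0 UMIs; 1 unnamed EIS cluster is not drawn.

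The IGFBP2 cluster was small and deeply read, with a median of 13056 UMIs per cell. IGFBP2 binds insulin-like growth factors, AQP8 is a water channel and TRPV5 a calcium channel. The cluster made up 1.30% of EIS cells and 4.90% of EIS UMIs but held 19.0% of the TFRC UMIs of that library. TFRC was found in 88.6% of its cells (80.9 to 93.95%). The middle cells held from 2 to 15 UMIs between the lower and upper quartile, with a median of 6 and a maximum of 56. At least 10 TFRC UMIs were counted in 35.2% of its cells, against 1.30% in the gland-type cluster led by SLPI and UABP-2. TFRC in it was 3.43-fold the level of that SLPI cluster (3.16 to 3.71). Its ACP5 level, 3260 CPM, was by contrast below the 40193 CPM of the EIS library, and 30.1-fold below the SLPI cluster. These levels are shares of all UMIs, and SLPI RNA alone took 378339 CPM of the SLPI cluster but 16325 CPM of the IGFBP2 cluster. Less of the total is thus left for other genes in the SLPI cluster. Cluster ratios without such abundant genes in the totals were not computed.

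The epithelial markers KRT8 (710 CPM) and CLDN7 were present in the IGFBP2 cluster, while the gland factor FOXA2 stood at 6.09 CPM, against 57.6 CPM in the SLPI cluster. SPP1, the adhesion protein osteopontin, named here after its values were seen, stood at 29911 CPM there and 10520 CPM in the SLPI cluster. Trophoblast markers summed to 46.9 CPM in it, near the 49.96 CPM of the SLPI cluster and far from the 7944 CPM of the SMPDL3A trophoblast-like cluster. Without doublet removal the cluster led by these genes stood at 614 CPM. It ranked first or second of all clusters in each of 7 clusterings, at 504 to 756 CPM. Its class name was less stable: it was unnamed when at least 1000 genes per cell were required and took a lymphatic endothelial name at resolution 0.5.

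The DCLK2 cluster reached the same level in shallow cells. DCLK2 encodes a kinase related to doublecortin. The median depth was 754 UMIs, and 63.4% of its 869 cells held no TFRC UMI, 32.5% held 1 to 2 and 4.03% held 3 to 9. Its cells at or above that depth stood at 668 CPM (597 to 745) and those below it at 576 CPM (490 to 673). After thinning to 1000 UMIs, a share of 42.4% held TFRC (34.8 to 50.3%) over the 165 cells that reached that depth, beside 43.3% (33.6 to 53.3%) in the IGFBP2 cluster, 18.3% (15.8 to 21.1%) in the SLPI cluster and 9.04% (6.97 to 11.5%) in the CYP26A1 cluster of EL. No cluster led by DCLK2 formed when at least 1000 genes were required; in the other 6 clusterings it stood at 592 to 664 CPM.

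**Figure D2:**
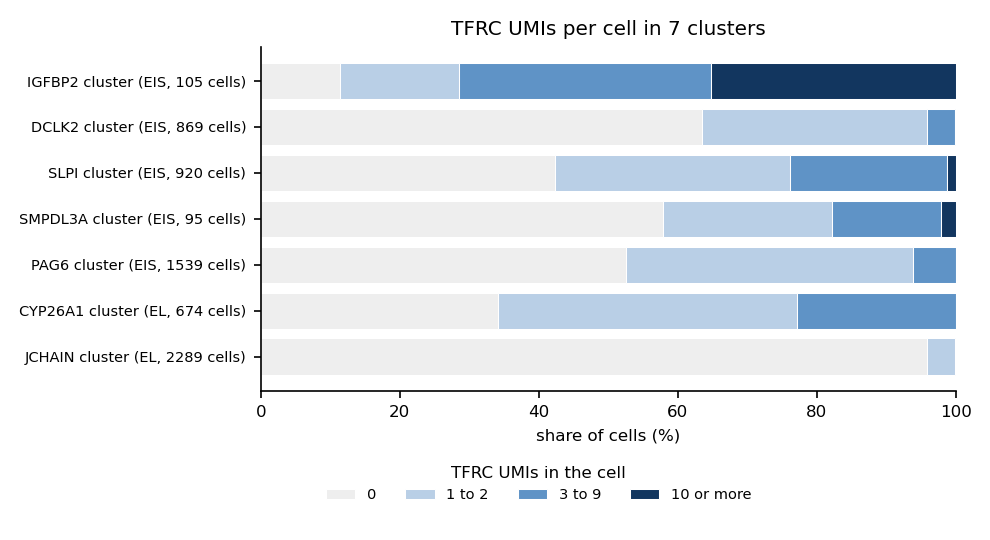
Share of cells (%) with 0, 1 to 2, 3 to 9 and 10 or more TFRC UMIs in 7 clusters, named by leading gene and library, without thinning. The IGFBP2 cluster has 35.2% of cells in the highest bin, and the shallow DCLK2 cluster has 63.4% of cells at 0 despite a similar CPM.

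Scaled to all UMIs, the gland-type cells that carried most of the uteroferrin RNA were not the cells highest in TFRC. The SLPI cluster (920 cells, median 6332.5 UMIs) held 98209 CPM of ACP5, the highest of all clusters, and 182 CPM of TFRC (173 to 191). By its size it was still the largest source of TFRC in EIS, with 28.1% of the TFRC UMIs from 24.9% of all UMIs. Within the IGFBP2 cluster, cells with less ACP5 than the median cell stood at 630 CPM of TFRC (585 to 677) and the others at 606 CPM (539 to 680), although ACP5 was 494 and 9859 CPM. Within the SLPI cluster the same split gave different levels: 147 CPM (134 to 161) where ACP5 was 66649 CPM and 203 CPM (191 to 215) where it was 117176 CPM. Cells of that cluster below its median depth also had more TFRC, 269 CPM (243 to 297), than the deeper cells, 163 CPM (154 to 173).

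ACP5 UMIs were found in every named class of EIS, immune and vascular cells included, and the TFRC levels are given beside them. The EIS library held 161 CPM of TFRC and 40193 CPM of ACP5, and a cluster whose TFRC and ACP5 both came from the library mixture would keep that ratio. Given its ACP5, the ratio would put TFRC at 13.1 CPM in the IGFBP2 cluster, where 623 CPM was measured, and at 6.31 CPM in the SMPDL3A cluster, where 205 CPM was measured. For the DCLK2 cluster it would give 302 CPM against 634 CPM measured. Some other clusters lay close to the ratio. The SLPI and CRYGS cluster had 149 CPM against 155 CPM, and the unnamed DPPA5 and CA4 cluster 111 CPM against 125 CPM. Others did not. The XCL1 and IL7R cluster of EIS lay above the ratio, with 41.1 CPM of TFRC and 2940 CPM of ACP5. The SLPI and UABP-2 cluster lay below it, with 182 and 98209 CPM. Free RNA itself was not measured, and where the RNA of a cluster came from was not tested.

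Of the vascular endothelial-like clusters of EIS, 1 lay near the library ratio and 1 above it. The cluster led by PLVAP, a protein of endothelial diaphragms, held 110 CPM of TFRC (83.7 to 141) with 30689 CPM of ACP5, and the ratio would give 123 CPM. The cluster led by ACKR1, a chemokine-binding protein of venules, held 31.5 CPM (18.7 to 49.8) with 1764 CPM of ACP5, where the ratio would give 7.06 CPM. TFRC was thus 3.48-fold higher in the PLVAP cluster (2.02 to 6.26), which also carried more ACP5. Epithelial markers summed to 658 CPM in the PLVAP and 165 CPM in the ACKR1 cluster, and trophoblast markers to 535 and 161 CPM. Of the trophoblast sums, GATA2 gave 58.5 and 109 CPM, and PAG6 327 and 29.8 CPM. The part of these markers in the difference was not tested. Of the 60 TFRC UMIs in the PLVAP cluster, 17 came from 1 cell.

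**Figure D3:**
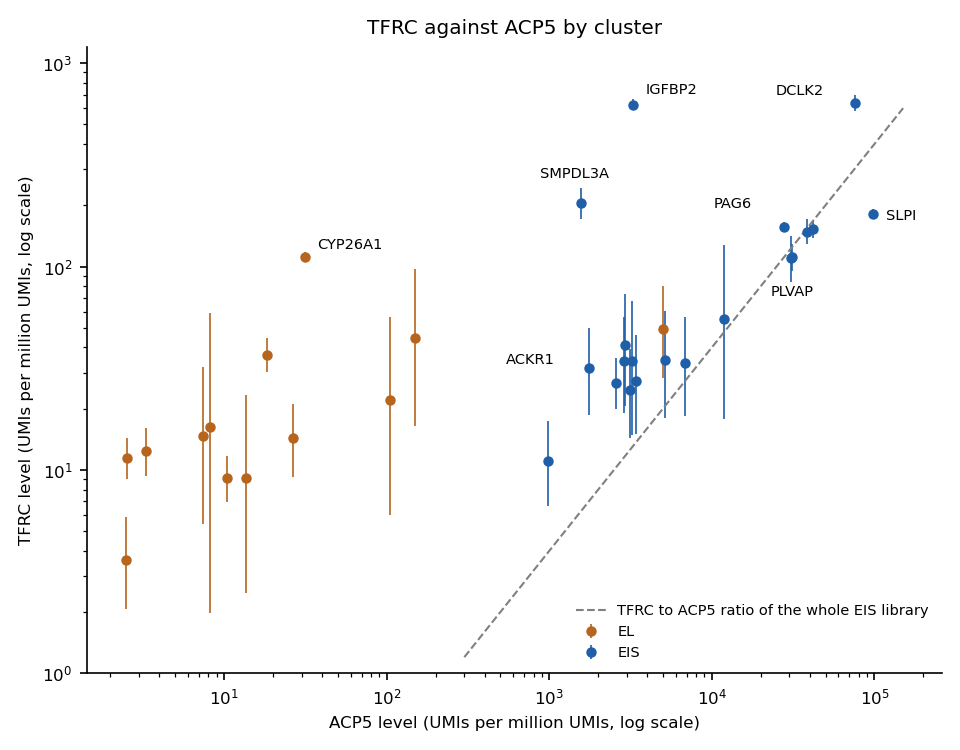
TFRC against ACP5 level (both CPM, log axes) for clusters of at least 50 cells with 1 UMI or more of each gene (the EL stromal cluster, with 0 of both, is not drawn); bars are exact Poisson 95% intervals of TFRC. The dashed line is the TFRC to ACP5 ratio of the whole EIS library: IGFBP2 and SMPDL3A lie far above it, PLVAP on it and SLPI, at 98209 CPM of ACP5, below it.

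Trophoblast-like cells stood at 160 CPM of TFRC (152 to 169, 1302 UMIs in 1634 EIS cells). Their main cluster, led by the pregnancy-associated glycoprotein PAG6 and the protease CTSL, held 157 CPM (148 to 166) with 27949 CPM of ACP5, where the library ratio would give 112 CPM. The SMPDL3A and CHGA cluster held 205 CPM with 1577 CPM of ACP5, and was 1.31-fold the PAG6 cluster (1.08 to 1.57). The PAG6 cluster also held 115941 CPM of SLPI RNA and 1431 CPM of IGFBP2 RNA, against 5814 and 36.3 CPM in the SMPDL3A cluster. PAG6 itself stood at 2005 and 5502 CPM. SLPI and IGFBP2 lead other clusters high in TFRC, and their part in the TFRC level of the PAG6 cluster was not tested. Against the SLPI cluster, the SMPDL3A cluster stood at 1.13-fold (0.936 to 1.35), an interval that includes equal levels. This ratio is scaled to all UMIs, of which SLPI RNA took 378339 CPM in the SLPI and 5814 CPM in the SMPDL3A cluster. It was not computed without such abundant genes in the totals. The trophoblast-like class as a whole had 0.631 of the level of epithelial-like EIS cells (0.591 to 0.673). It summed to 3152 CPM of trophoblast, 3228 CPM of epithelial, 6867 CPM of stromal and 782 CPM of smooth muscle or pericyte markers, against 1432 CPM of stromal and 204 CPM of smooth muscle or pericyte markers in epithelial-like EIS cells. The part of these other cell types in the ratio was not tested. Without the IGFBP2 and DCLK2 clusters the log2 ratio was -0.07 in place of -0.67, with an interval that includes 0. When cells were named 1 by 1 from the same markers, 183 EIS cells were trophoblast-like in place of 1634, at 132 CPM of TFRC (115 to 152).

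In EL, TFRC was concentrated in the cluster led by CYP26A1, an enzyme that breaks down retinoic acid. This cluster made up 6.83% of EL cells and 24.3% of EL UMIs, at a median of 13020.5 UMIs per cell, and held 72.7% of the TFRC UMIs (1046 of 1438). TFRC was found in 65.9% of its cells, and no cell held more than 9 UMIs. The level of 111 CPM was 11.1-fold that of the named EL epithelial-like cells (9.45 to 13.1). A shallow EL cluster led by JCHAIN and CYP26A1 (2289 cells, median 885 UMIs) held 36.9 CPM (30.3 to 44.4), so that the deep CYP26A1 cluster was 3.02-fold higher (2.48 to 3.71). ACP5 was 31.4 CPM in the deep cluster. In all 7 clusterings the highest EL cluster was led by CYP26A1, at 110 to 112 CPM, with 67.2 to 75.9% of EL TFRC UMIs.

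The CYP26A1 cluster was left without a class name because HDC, which is on the mast cell list, was among its 10 leading genes and no listed epithelial marker was. Its epithelial markers were high all the same, with KRT8 at 2418 CPM and all 9 measured markers present, although FOXA2 stood at 2.98 CPM. The naming rule was written after the TFRC levels of the clusters had been seen, and the epithelial comparison between the libraries depends on it, as given below.

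**Figure D4:**
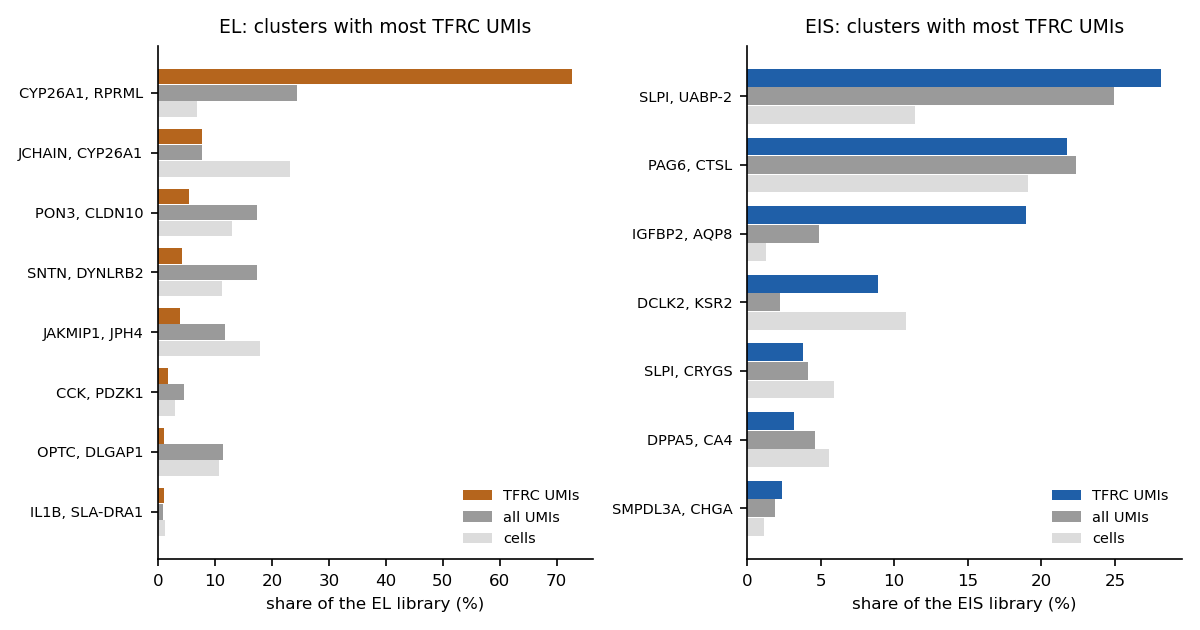
Share (%) of TFRC UMIs, of all UMIs and of cells for the clusters of each library with most TFRC UMIs (8 in EL, 7 in EIS, where 1 unnamed cluster is not drawn), named by their leading 2 genes. In EL the CYP26A1 cluster holds 72.7% of TFRC UMIs from 6.83% of cells, and in EIS the IGFBP2 cluster holds 19.0% from 1.30%.

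The other EL epithelial-like cells had little TFRC. Clusters led by CCK and PDZK1 (14.3 CPM), by JAKMIP1 and JPH4 (12.4 CPM) and by PON3 and CLDN10 (11.4 CPM) had overlapping intervals. The OPTC cluster was lower still, with the PON3 cluster 3.17-fold above it (1.83 to 5.82). As a class, EL epithelial-like cells stood at 10.0 CPM (8.60 to 11.6, 175 UMIs) and EIS epithelial-like cells at 254 CPM (246 to 263, 3245 UMIs), a 25.3-fold higher level in EIS (21.8 to 29.7). Different clusters supplied this class: 4 from EL, led by JAKMIP1, PON3, OPTC and CCK, and 5 from EIS, led by SLPI (2 clusters), DCLK2, IGFBP2 and MAL. With the deep CYP26A1 cluster counted as epithelial, the EL level was 45.5 CPM and the EIS level was 5.59-fold higher (5.23 to 5.97). With cell types gated cell by cell from the same markers, the levels were 44.4 and 196 CPM, a log2 ratio of EL over EIS of -2.14 in place of -4.66. That gate called 522 of the 674 cells of the deep CYP26A1 cluster epithelial, and it left 598 EIS cells in the class in place of 2409. With the same classes, the EIS level was 47.2-fold higher when genes above 1% of a library were left out of the totals and 54.5-fold higher with TMM factors. The EIS level was higher in each of these versions, and the size of the difference depended on them. Summed trophoblast markers were 166 CPM in EL and 92.3 CPM in EIS epithelial-like cells, and stromal markers 224 and 1432 CPM; their part in the result was not tested.

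Ciliated cells offered a comparison within 1 shared cluster. Ciliated-like cells held 9.24 CPM in EL (7.16 to 11.7, 67 UMIs in 1424 cells) and 26.8 CPM in EIS (19.9 to 35.5, 49 UMIs in 265 cells). EIS was 2.91-fold higher (1.97 to 4.26), and 2.95-fold within the SNTN cluster that both libraries shared (1.98 to 4.38). In ciliated-like cells the stromal markers came to 14.5 CPM (EL) and 194 CPM (EIS), and the trophoblast markers to 114 and 112 CPM. Of the trophoblast markers, PAG6, GATA3, TFAP2C, DLX3 and CYP11A1 had 0 UMIs in EL, while only TFAP2A had 0 in EIS. The part of these markers in the difference was not tested. EIS ciliated cells carried 2729 CPM of ACP5, at which the library ratio would give 10.9 CPM of TFRC. With an assumed 10% of the UMIs of each class removed in the proportions of its library, the log2 ratio moved from -1.54 to -0.94. Its interval lay below 0 (-1.78 to -0.12) but leaves out the error of the assumed 10%. After thinning to 1000 UMIs the log2 ratio was -1.24, with an interval that includes 0 (-2.73 to 0.45, 13 EL and 6 EIS UMIs).

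In immune cells the intervals of the ratio between the libraries included equal levels, and the values moved with the processing. T or NK-like cells held 31.7 CPM in EL (15.2 to 58.3, 10 UMIs) and 32.1 CPM in EIS (20.8 to 47.4, 25 UMIs), a ratio of 0.986 whose interval ran from 0.423 to 2.13. Without doublet removal the log2 ratio was -1.44, with an interval below 0 (-2.46 to -0.55). Macrophage, monocyte or dendritic-like cells held 48.1 CPM in EL (16 UMIs) and 28.3 CPM in EIS (32 UMIs), a ratio of 1.70 (0.870 to 3.19). In macrophages the log2 ratio was -1.20 with at least 1000 genes per cell (-3.54 to 0.44, 3 EL UMIs). It was -0.69 with the per-cell gate (-1.66 to 0.16) and -0.39 after thinning (-3.66 to 1.94, 2 EL UMIs). These values point toward EIS, but their intervals include 0. With an assumed 10% of the UMIs of each class removed as free RNA, the log2 ratio was 1.87 toward EL (0.73 to 3.04). That interval takes the remaining 14.8 EL and 13.8 EIS UMIs as if counted. It leaves out the error of the assumed 10%, which was not measured. Of the ACP5 UMIs of EL, 73.6% fell in these macrophage-like cells, but 11 of the 129 cells held all 1608 of them and 1 cell held 1164. The class level of ACP5 there describes those few cells; the gene is also known as the tartrate-resistant acid phosphatase of the myeloid lineage.

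Other classes had too few TFRC UMIs for more than a level. The cluster named from erythroid markers and led by HBE1 and HBZ held 34.8 CPM in 97 EIS cells (18.0 to 60.8, 12 UMIs) and 0 UMIs in 27 EL cells, where 3 UMIs would be 66.6 CPM. Its EIS cells also held 3300 CPM of summed epithelial markers, above the 1109 CPM of the SLPI cluster, so its TFRC cannot be read as an erythroid level. Lymphatic endothelial-like cells of EIS held 33.6 CPM (18.4 to 56.4), neutrophil-like cells 55.0 CPM on 5 UMIs, stromal cells 13.4 CPM on 8 UMIs and smooth muscle or pericyte-like cells 11.1 CPM (6.68 to 17.3). The stromal level of EIS depended on how cells were named. The per-cell gate put 2331 EIS cells in that class in place of 60, at 132 CPM of TFRC (125 to 140, 1235 UMIs). Those gated cells held 28891 CPM of ACP5.

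TFRC was then set against cell division, with dividing cells taken as those with UMIs of at least 2 of 10 measured mitotic genes. In EL, 180 dividing cells held 41.3 CPM and the others 37.1 CPM, a ratio of 1.11 (0.850 to 1.43). Among EL epithelial-like cells the ratio was 3.13 (1.96 to 4.80), from 28.4 CPM in 97 dividing cells and 9.06 CPM in the others. Without the CYP26A1 cluster, which is high in TFRC, the ratio over all EL cells was 1.16 on the log2 scale in place of 0.15. In EIS, 279 dividing cells held 129 CPM and the others 164 CPM, a ratio of 0.786 (0.702 to 0.878). Trophoblast-like cells, with 179 of those dividing cells, had a ratio of 0.909 (0.778 to 1.06), and 17 dividing epithelial-like cells gave 1.65 (1.35 to 2.00). Of those 17 cells, 6 lay in the IGFBP2 cluster, and without that cluster the ratio was 0.722 (0.420 to 1.16). Dividing cells were deeper than the others, with medians of 6274.5 and 2315.5 UMIs in EL, and a gate on detected genes selects deep cells. With at least 4 mitotic genes the log2 ratio was -0.08 in EL and -1.01 in EIS.

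Of 72 other symbols on the iron lists, 45 had a feature and 42 reached 20 UMIs in epithelial-like cells. Of these, 8 were at least 2-fold higher in EIS, where 11.2% of 14639 genes were, and 11 were at least 2-fold higher in EL, where 58.2% were. The median gene of this class was itself higher in EL by 1.23 (log2), with 5 genes above 1% of a library left in the totals; the median of the 42 iron genes was 0.56. Without those abundant genes in the total the iron split became 16 higher in EIS and 3 in EL, and with TMM factors 17 and 2, the median gene then lying at 0.34 and 0.13. Of all genes, 17.6% and 26.6% were then past 2-fold toward EIS and EL in the first case, and 20.2% and 21.7% in the second. Relative to the median gene, TFRC stood at -5.90 (log2, EL over EIS), a value that does not depend on the scaling by construction, and 3.36% of genes had a lower ratio.

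Among genes of the transferrin cycle, STEAP3, the endosomal iron reductase, went with TFRC between the classes. Its level was 0.9749 CPM in EL epithelial-like cells and 28.8 CPM in those of EIS, 29.5-fold higher in EIS (18.2 to 51.2); its level lies under the 50 CPM set for naming a gene, and it was named after its values were seen. Transferrin itself, TF, stood at 36.6 and 40.8 CPM, a ratio of 1.11 toward EIS (0.990 to 1.25). The median gene of this class was higher in EL by 1.23 (log2). Relative to that gene, TF lay further toward EIS than its ratio of 1.11, and so did FTH1 and ACO1 than their ratios below. SNX3, a sorting protein that returns the receptor to the surface, was higher in EL, at 154 and 30.1 CPM, and lay 1.12 (log2) above the median gene. FTH1, the heavy chain of ferritin that stores iron, had 3689 CPM in EL and 6526 CPM in EIS epithelial-like cells, 1.77-fold higher in EIS (1.75 to 1.79). NCOA4, which delivers ferritin for breakdown, was higher in EL at 75.1 against 20.5 CPM, which is 0.64 (log2) above the median gene.

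ACO1, an iron-regulatory protein, had 70.2 CPM in EL epithelial-like cells and 135 CPM in those of EIS, 1.93-fold higher in EIS (1.79 to 2.08). NFS1, which supplies sulfur for iron-sulfur cluster assembly, was higher in EL, at 66.8 against 16.9 CPM, which is 0.75 (log2) above the median gene. Of the secreted iron-binding proteins, ACP5 stood at 5.10 and 73347 CPM and UABP-2, its associated protein, at 0.459 and 67311 CPM. In ciliated-like cells 5 of 40 measured iron genes were at least 2-fold higher in EIS (4.36% of genes) and 0 in EL (6.16%). In macrophage-like cells it was 5 of 35 in EIS (8.62%) and 0 in EL (7.78%), and in T or NK-like cells 3 of 27 in EIS (5.09%) and 2 in EL (4.67%). ACP5 or UABP-2 were among the EIS genes in each of these classes.

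The clusters high in TFRC differed in the rest of their iron genes. In the SMPDL3A trophoblast-like cluster the iron exporter SLC40A1 (ferroportin) stood at 384 CPM, against 3.65 CPM in the IGFBP2 cluster, 6.64 CPM in the DCLK2 cluster and 1.80 CPM in the SLPI cluster. HMOX1, which degrades haem and frees its iron, stood at 317 CPM there and 93.2 CPM in the IGFBP2 cluster. The recycling genes RAB11A and EHD1 stood at 666 and 380 CPM in the SMPDL3A cluster and at 150 and 24.4 CPM in the IGFBP2 cluster. In the PAG6 cluster, SLC40A1 stood at 119 CPM and HMOX1 at 112 CPM. Scaled to all UMIs, the IGFBP2 and DCLK2 clusters held the most STEAP3 of the 6 clusters compared, at 43.9 and 43.8 CPM, and the least FTH1, at 3522 and 2173 CPM. The SLPI cluster held 27.8 CPM of STEAP3. SLPI RNA alone took 378339 CPM of the SLPI cluster, 66864 CPM of the DCLK2 cluster and 16325 CPM of the IGFBP2 cluster. The order of STEAP3 depends on this scaling and was not computed without such abundant genes in the totals. The CYP26A1 cluster of EL held 320 CPM of ACO1, close to the 329 CPM of the DCLK2 cluster and above the 119 CPM of the IGFBP2 cluster. It also held the most ALAS1, the first enzyme of haem synthesis, at 194 CPM, and 2.77 CPM of STEAP3.

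**Figure D5:**
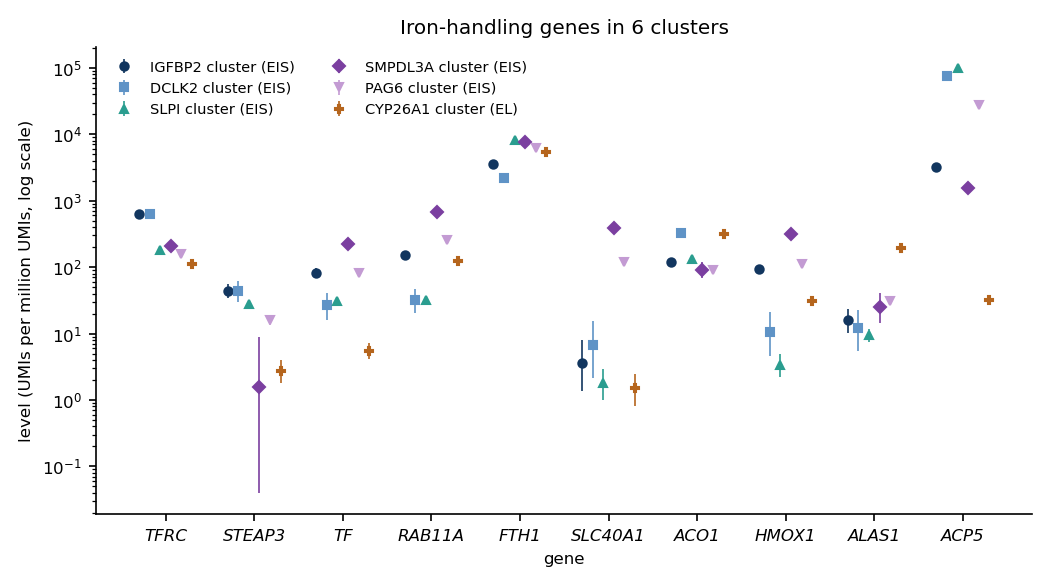
Level (CPM, log axis) of TFRC, 8 other iron-handling genes and ACP5 in 6 clusters named by leading gene and library, with exact Poisson 95% intervals. TFRC is highest in the IGFBP2 and DCLK2 clusters, SLC40A1 (384 CPM) and HMOX1 (317 CPM) in the SMPDL3A cluster, and ALAS1 (194 CPM) in the CYP26A1 cluster.

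The genes most like TFRC over the 34 cluster levels, by Pearson correlation of log2(CPM + 10) among 6282 genes, were GPX3 (0.81), ETV1, CST6, PCK1, A4GALT, SULT2A1, LIF, C13H21orf62, VEGFA and SLC5A6 (0.75). ACP5 ranked 22nd at 0.72. The points share 2 libraries and the free RNA in each, so these values are a description. Within the 14 EL clusters GPX3 was at -0.23 and SULT2A1 at -0.46, while VEGFA was at 0.82 and A4GALT at 0.64. SULT2A1, a sulfotransferase, stood at 1232 CPM in the IGFBP2 cluster, 286 CPM in the SLPI cluster and 0 CPM in the CYP26A1 cluster of EL. The list depended on the points: with named classes of each library as points, 1 of the 10 genes was shared.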

How the data were processed

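The authors deposited raw UMI counts per gene and barcode, not normalized. The version was Cell Ranger 2.1.1 per the submitters' processing notes but, per the file headers, cellranger 6.1.0; a build is not given in the sources used here. A symbol was paired with 10753 of the 26881 features. Barcodes with at least 500 UMIs and 300 genes were kept. Doublets were scored with Scrublet (scanpy 1.11.5) and the highest-scoring 0.8% per 1000 barcodes left out (933 EL, 601 EIS), since the automatic threshold marked 0 and 6. Clustering used 2000 variable genes without iron or mitotic genes, 30 components, 15 neighbours and leidenalg 0.10.2 at resolution 1.0, without integration.

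The gene lists and markers were chosen with earlier results of these data known. The rule that turned markers into names was written after the clusters, their leading genes and their TFRC levels had been inspected; it was run once and not changed. It asks for a mean log2 marker score of at least 1, at least 3 markers 2-fold higher at 20 CPM or more, and no more markers of another class than of its own among the 10 leading genes. Clusters led by uterine secretions got no non-epithelial name. An epithelial name was withheld where markers of another family reached a lower score limit. Clusters with no own marker among the leading genes were unnamed if their median UMIs were under 1/3 of the library median. The DCLK2 cluster had no such marker and lay just above that depth limit, at 753.5 UMIs against 2240.5 in EIS. Without it the epithelial log2 ratio of EL over EIS was -4.53 in place of -4.66. The mast cell list had only 2 measured markers.

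CPM came from UMI sums over the cells of a class or cluster in each library. Levels have exact Poisson, ratios exact conditional and shares exact Clopper-Pearson 95% intervals, and a count of 0 is read against 3 UMIs. Genes with at least 20 UMIs over both libraries were counted. List genes with at least 50 CPM, the 10 genes most like TFRC and the 3 highest and 3 lowest clusters were to be named; 1 list gene and 1 unnamed EIS cluster are not reported here, though they stay in the counts. The ratios were tested on simulated counts. TMM factors came from edgeR 4.0.16. Alternatives covered scaling, filters, doublets, resolution, a per-cell gate, thinning and free RNA.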

Additional observations from a re-analysis of the deposited data

How the results depend on the processing

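Values are log2 ratios. The TFRC ratio of EL over EIS stayed below 0 in every setting run for all cells (-3.58 to -1.98, against -2.11), epithelial-like cells (-5.77 to -2.14, against -4.66) and ciliated-like cells (-1.56 to -0.94, against -1.54); in T or NK-like and macrophage-like cells it took both signs. No paired analysis was possible because each group has 1 library. Nothing was left out by replicate for the same reason. Where no cause is named below, the cause was not tested.

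Scaling without genes above 1% of a library gave -2.56 for all cells, -5.56 for epithelial-like cells, -1.24 for trophoblast-like over epithelial-like cells and -0.66 for dividing over other EIS cells, with 16 iron genes higher in EIS and 3 in EL. TMM factors gave -2.60, -5.77, -1.35 and -0.62, with 17 and 2 iron genes. At least 1000 genes per cell gave -1.98 for all cells, -3.98 for epithelial-like, -1.20 for macrophage-like and -0.069 for trophoblast-like over epithelial-like cells, with 5 and 21 iron genes. Without doublet removal the values were -5.31 for epithelial-like, -1.44 for T or NK-like and -1.35 for trophoblast-like over epithelial-like cells, with 4 iron genes higher in EL. Resolution 0.5 gave -4.32 and -0.42 for epithelial-like cells and for trophoblast-like over them, with 19 iron genes higher in EL. The per-cell gate gave -2.14, -0.69 and -0.57 for epithelial-like, macrophage-like and trophoblast-like over epithelial-like cells, with 4 and 23 iron genes. Thinning gave -2.84 for all cells, -0.39 for macrophage-like cells and -0.95 for dividing EIS cells. The dividing value rests on 4 TFRC UMIs in dividing cells (-2.83 to 0.41), and the macrophage value on 2 in EL (-3.66 to 1.94). Removing 10% as free RNA gave -5.24, -0.94, 0.81 and 1.87 for epithelial-like, ciliated-like, T or NK-like and macrophage-like cells. With 4-fold as the limit, 5 and 2 iron genes were past it. With at least 4 mitotic genes the dividing ratio was -0.079 in EL and -1.01 in EIS.

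The following were chosen after seeing the data. With the deep CYP26A1 cluster as epithelial the ratio was -2.48, and -2.51 with both CYP26A1 clusters. Without the deep CYP26A1 cluster it was -3.58 for all cells, and the dividing ratio in EL was 1.16. Without the IGFBP2 cluster the epithelial ratio was -4.32, and -4.08 without that and the DCLK2 cluster. Trophoblast-like over epithelial-like cells stood at -0.32 without the IGFBP2 cluster, -0.52 without the DCLK2 cluster, -0.069 without both and -0.31 with the PAG6 cluster left out. With named classes as points, 1 of the 10 genes most like TFRC was shared. Counting error limits immune, erythroid and stromal levels of the classes named from clusters, which rest on 0 to 32 UMIs.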
